A study of Drosophila melanogaster with 29 samples.

Results

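PEN2 neurons, a columnar cell type of the fly central complex, were compared with RNA of the central brain in low-cell libraries, across all genes that could be tested. The members were chosen by their labels: 14 libraries of 35 PEN2 cells each (8 in a first set and 6 in a second, which are separate sample entries) and 8 libraries of 50 pg of central brain RNA (CB), together 22 of the 29 low-cell libraries. The other 7 held 40 cells of R4d ring neurons, a second sorted type, and entered the fit and the side comparisons only. The study profiled central complex neurons of Drosophila melanogaster by bulk, low-cell and single-cell RNA sequencing in 29 samples. All low-cell samples came from adult females aged 3 to 5 days.

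PEN2 cells carried the split driver line SS02232, and R4d cells the line SS00238, each with the nuclear red reporter nlstdTomato. Both were isolated by fluorescence-activated sorting after enzymatic digestion of pooled brains, so the libraries hold what the driver labels, and cells outside the named type that the driver also labels cannot be told apart here. CB was unsorted RNA from brains whose optic lobes had been removed, and the labels give no driver or reporter for it. The 8 CB libraries belong to 1 sample entry, and the labels do not say whether libraries of a group came from separate dissections, so a p-value covers library-to-library spread only, which may be technical. Sorting and input differ between PEN2 and CB in the same way as the cell type does, and the effects cannot be told apart. A level in CB is an average over all its cells, so fewer cells of a type and less RNA per cell cannot be told apart either.

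PEN neurons connect the protocerebral bridge with the ellipsoid body and are known for their part in the heading circuit of the fly, where they shift the represented heading as the animal turns. R4d cells are ring neurons that send processes into the ellipsoid body. Neurons of the fly brain are commonly described by their transmitter, their neuropeptides and a combination of transcription factors, while glia are known for carrying much of the sugar use, transmitter uptake and detoxification of the brain.

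The PEN2 libraries held 399694 to 500622 gene counts with 4725 to 5557 genes detected, against 340527 to 415414 counts and 7281 to 7519 genes in CB. Spike-in RNA took 3.51% to 6.98% of all counts in PEN2 and 0.347% to 0.633% in CB. Levels are given in CPM, counts scaled to a common library size with edgeR's TMM factors, and tdTomato RNA ranged over 679 to 4810 CPM in PEN2, against 27.4 to 60.9 CPM in CB. The labels give no reporter for CB, and the source of its tdTomato counts was not tested. Among 1325 genes with a mean of at least 100 CPM in both groups, the median coefficient of variation was 41.8% across PEN2 and 19.8% across CB libraries. Across the genes tested, which are not independent replicates, log2 values of a PEN2 library had a mean correlation of 0.594 to 0.623 with the other PEN2 libraries, so none stood apart, and of 0.517 to 0.541 with CB. The R4d libraries were deeper, at 1001160 to 1154010 counts.

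The 4 markers that go with the label were all higher in PEN2. FMRFa (FBgn0000715), the precursor of FMRFamide-like peptides, spanned 748 to 4895 CPM (median 2716) in PEN2, against 72.7 to 130.1 CPM (median 94.0) in CB. Optix (FBgn0025360), a SIX-family homeobox factor, spanned 799.6 to 1550.1 CPM (median 1109) in PEN2 and 9.89 to 72.3 CPM (median 39.5) in CB. For run (FBgn0003300), which encodes the founding runt-domain factor, the values were 65.4 to 962 CPM (median 525) in PEN2 and 0 to 34.9 CPM (median 13.04) in CB. The 2 groups did not overlap for any of these genes. Relative to CB the log2 changes were 4.77 ± 0.29 for FMRFa, 4.87 ± 0.29 for Optix and 5.15 ± 0.57 for run (± SE, adjusted p = 5.27e-14, 5.32e-14 and 5.10e-09, edgeR's quasi-likelihood test with Benjamini-Hochberg adjustment, as for every adjusted p here unless another method is named). ChAT (FBgn0000303), the enzyme that makes acetylcholine, spanned 1663 to 3078 CPM (median 2048) in PEN2, against 672 to 956 CPM (median 797) in CB, a log2 change of 1.41 ± 0.27 (adjusted p = 8.24e-05). The groups again did not overlap.

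Markers of other cells were low. Of 16 glial genes, 14 could be tested and 13 were lower in PEN2, and their summed level was 174 to 657 CPM in PEN2, against 8106 to 9326 CPM in CB. Gs2, a glutamine synthetase of glia, had counts in 3 of 14 PEN2 libraries, at 0 to 78.5 CPM (median 0), against 2509.6 to 2955 CPM (median 2806) in CB. Eaat2, a transporter gene of the same list, was not called, at 91.3 to 426 CPM (median 177) in PEN2 and 107 to 199.96 CPM (median 169.7) in CB (adjusted p = 0.536). The defining glial markers repo and alrm had 1 and 2 counts in all PEN2 libraries together, and 5 of the 16 genes had none. The 11 markers of other transmitters summed to 22.9 to 253 CPM in PEN2 and 2200 to 2659 CPM in CB, and all 8 tested were lower. Of their defining markers, VGlut and Vmat had 2 counts each and Gad1 had 57 counts in PEN2. Photoreceptor genes summed to 0 to 66.3 CPM in PEN2, against 2321 to 3222 CPM in CB, with 6 of 12 at 0 and 3 counts of ninaE in PEN2. Fat body and hemocyte genes summed to 0 to 489 CPM in PEN2 and 633 to 861 CPM in CB, where Pxn, which encodes peroxidasin, was the exception without a call: 0 to 487 CPM (median 165) in PEN2 and 237 to 392.7 CPM (median 272) in CB (adjusted p = 0.504). Pxn passed as lower with limma-voom (0.0266). None of 10 muscle and tracheal genes could be tested, and they summed to 0 to 19.1 CPM in PEN2 and 51.5 to 137 CPM in CB. Kenyon cell markers summed to 299 to 915 CPM in PEN2 and 1612 to 1942 CPM in CB, with 4 of 7 tested lower and 1 count of ey in PEN2.

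**Figure D1:**
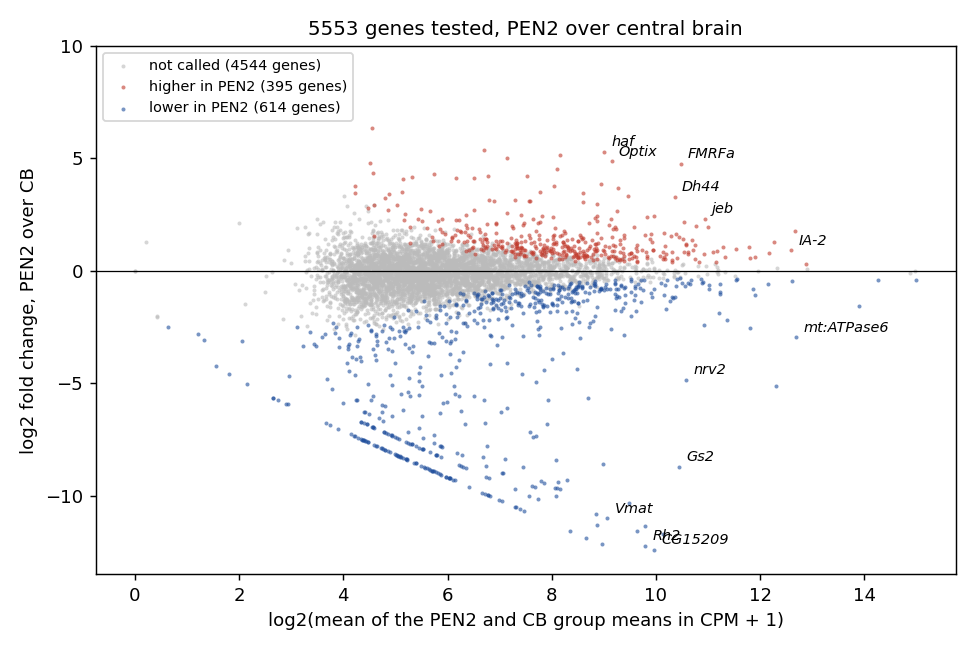
Log2 fold change of PEN2 over CB (vertical) against the mean level of both groups on a log2 axis (horizontal) for the 5553 genes tested, with one point per gene. Called rises lie mostly within 3 log2 steps of 0, while called falls reach below -12, and the slanted lines at the lower edge are genes with no or almost no counts in PEN2.

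Of 17612 genes, 5553 passed the filter on low counts and 1009 (18.2%) differed between PEN2 and CB. Of all genes tested, 7.11% were higher in PEN2 and 11.1%, or 614 genes, were lower, where 1477 genes had an unadjusted p under 0.05. The falls were deeper than the rises: 278 genes fell and 35 rose by more than 3 log2, and the median change was -2.64 among the falls and 1.14 among the rises. Every PEN2 library lay above every CB library for 97 genes (1.75% of those tested), and below for 309 genes (5.56%). Of the 614 lower genes, 88 had no count in any PEN2 library and 88 more had 1 to 3 counts in all 14 together. Such genes passed the filter through another group and could hardly be called higher, in the lists below as well. Of the higher genes, 375 were detected in all 14 PEN2 libraries, and none was absent from all 8 CB libraries. Of all 5553 genes tested, 2049 were detected in all 14 PEN2 libraries and 5017 in all 8 CB libraries. Presence of the higher genes in CB was therefore largely set in advance. The median over all genes tested was -0.13 log2. Fitted changes of genes with 0 counts in PEN2 depend on the prior count and are not given. With counts summed per sample entry, which leaves 1 residual degree of freedom, 304 genes were called (85 higher, 219 lower). Folds with a bound use a floor of 3 counts over the PEN2 group.

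Besides the label markers, the 15 largest rises held genes of several roles. CG13579 (FBgn0035010) stood at 58.7 to 419 CPM (median 172) in PEN2 and 0 to 10.8 CPM (median 3.74) in CB (5.38 ± 0.73 log2, adjusted p = 2.95e-07). The leucine-rich repeat gene haf spanned 728 to 1617 CPM (median 952) in PEN2, against 12.4 to 53.0 CPM (median 20.8) in CB (5.29 ± 0.26 log2, adjusted p = 4.26e-18). Neither gene had overlapping groups. The pigment gene y, at 0 to 135 CPM (median 39.4) in PEN2, had counts in 11 of 14 PEN2 libraries and in 1 CB library (6.34 ± 1.19 log2, adjusted p = 8.45e-05), and its groups overlapped at 0. Scgdelta, a sarcoglycan of the dystrophin complex, spanned 3.96 to 122 CPM (median 29.5) in PEN2 and 0 to 7.42 CPM (median 0) in CB (adjusted p = 0.000556). The Scgdelta groups overlapped at their edges.

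**Figure D2:**
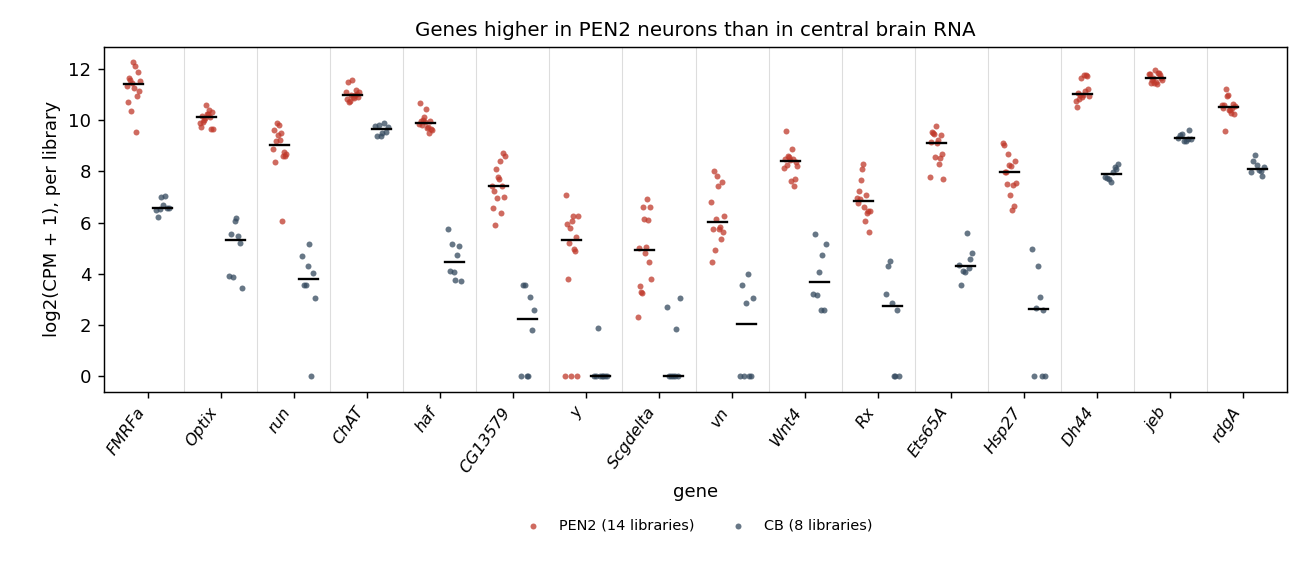
Level of 16 genes called higher in PEN2, as log2(CPM + 1) in each library, with PEN2 on the left and CB on the right of each gene and a bar at the group median. FMRFa, Optix, haf, Dh44 and jeb lie apart from CB in every library, while y is absent from 3 PEN2 libraries and Scgdelta touches the CB range.

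Transcription factor genes changed in both directions. Over the 6 lists of such factors, 115 members were tested, 22 rose and 19 fell (19.1% and 16.5%, against 7.11% and 11.1% of all genes), with a median change of 0.05 log2. Of 24 homeobox genes, 6 rose and 9 fell (25% and 37.5%). Besides Optix these included Rx, the retinal homeobox gene, at 48.9 to 308 CPM (median 113) in PEN2 and 0 to 21.7 CPM (median 5.66) in CB (4.14 ± 0.65 log2, adjusted p = 9.33e-06). The LIM-homeobox gene Lim1 spanned 646 to 1489 CPM (median 1032) in PEN2, against 121 to 207 CPM (median 160.1) in CB (2.68 ± 0.16 log2, adjusted p = 1.23e-15). All PEN2 libraries lay above all CB libraries for both.

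Of 15 Ets-domain and nuclear receptor genes, 4 rose and none fell (26.7% higher, against 7.11% of all genes). Ets65A spanned 206 to 876 CPM (median 556) in PEN2 and 10.8 to 47.4 CPM (median 18.7) in CB (4.54 ± 0.53 log2, adjusted p = 1.36e-08). The gene aop, an Ets-domain repressor that MAP kinase signalling inactivates, spanned 198 to 2040.1 CPM (median 868) in PEN2 and 18.8 to 96.4 CPM (median 69.1) in CB (3.88 ± 0.38 log2, adjusted p = 2.92e-10). Neither overlapped. Of 25 zinc finger and related genes, 8 rose and 3 fell (32% and 12%, the share that fell being near the 11.1% of all genes). The BTB factor br stood at 409 to 1496 CPM (median 645) in PEN2 and 99.7 to 211 CPM (median 139) in CB (2.45 ± 0.52 log2, adjusted p = 0.000492), and dan, a factor of antennal and eye patterning, at 117 to 752 CPM (median 318) in PEN2 and 30.7 to 150.5 CPM (median 75.5) in CB (2.16 ± 0.52 log2, adjusted p = 0.00216). The br groups stood apart, and the dan groups overlapped in their tails. Sox102F, a Sox-family gene, overlapped as well, with medians of 200.1 CPM in PEN2 and 53.0 CPM in CB (1.99 ± 0.38 log2, adjusted p = 8.23e-05).

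Of the 9 homeobox genes that fell, 4 had 0 counts in PEN2 and 3 more had 1 to 3 counts. The homeobox gene CG34367 had 0 counts in all 14 PEN2 libraries, against 36.2 to 82.2 CPM (median 51.04) in CB, and was at least 119-fold lower. The retinal determination cofactor gene dac was likewise at 0 in PEN2, against 17.9 to 75.4 CPM (median 46.4) in CB, and at least 106-fold lower. The NK2-type homeobox gene scro had 2 counts in all PEN2 libraries together and 81.2 to 142 CPM (median 121) in CB, a ratio of CB over PEN2 of 390.1 (95% counting interval 107 to 3234). Xbp1, a factor of the unfolded protein response, differed in degree: 15.2 to 205 CPM (median 79.8) in PEN2, against 199 to 514 CPM (median 313) in CB (-1.78 ± 0.31 log2, adjusted p = 3.08e-05). The abundant bHLH-type gene emc, at medians of 522 CPM in PEN2 and 375 CPM in CB, was not called (adjusted p = 0.539). Of the 23 bHLH genes tested, 1 rose and 2 fell (4.35% and 8.70%, near the 7.11% and 11.1% of all genes).

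Against R4d, the other sorted type, many of these factors differed as well. PEN2 and R4d were compared in the same fit, with the PEN2 libraries shared by both comparisons, and 653 genes were higher (11.8%) and 647 lower (11.7%) in PEN2 than in R4d. Of the 115 transcription factor genes, 44 were higher and 14 lower in PEN2 than in R4d. Of those that rose over CB, all 6 homeobox genes, all 4 Ets and nuclear receptor genes and 6 of the 8 zinc finger and related genes were also higher than in R4d. Optix had a median of 0 CPM, Ets65A of 0 CPM and Rx of 0 CPM in R4d. Lim1 differed least of these, at 646 to 1489 CPM (median 1032) in PEN2 and 532 to 894 CPM (median 806) in R4d, with overlap (0.48 ± 0.15 log2, adjusted p = 0.0146). The Sox gene D had 0 counts in PEN2 and 911 to 1446 CPM (median 1266) in R4d, above the 29.8 to 151 CPM (median 80.6) of CB, and grn, a GATA factor, had 0 counts in PEN2, 138 to 269 CPM (median 235) in R4d and 2.55 to 46.1 CPM (median 19.7) in CB. Sox21b and HLH3B followed the same order, with 1 count and 0 counts in PEN2, R4d medians of 273 and 272 CPM and CB medians of 34.6 and 10.1 CPM. In each of these 4 genes R4d lay above CB and PEN2 below it.

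**Figure D3:**
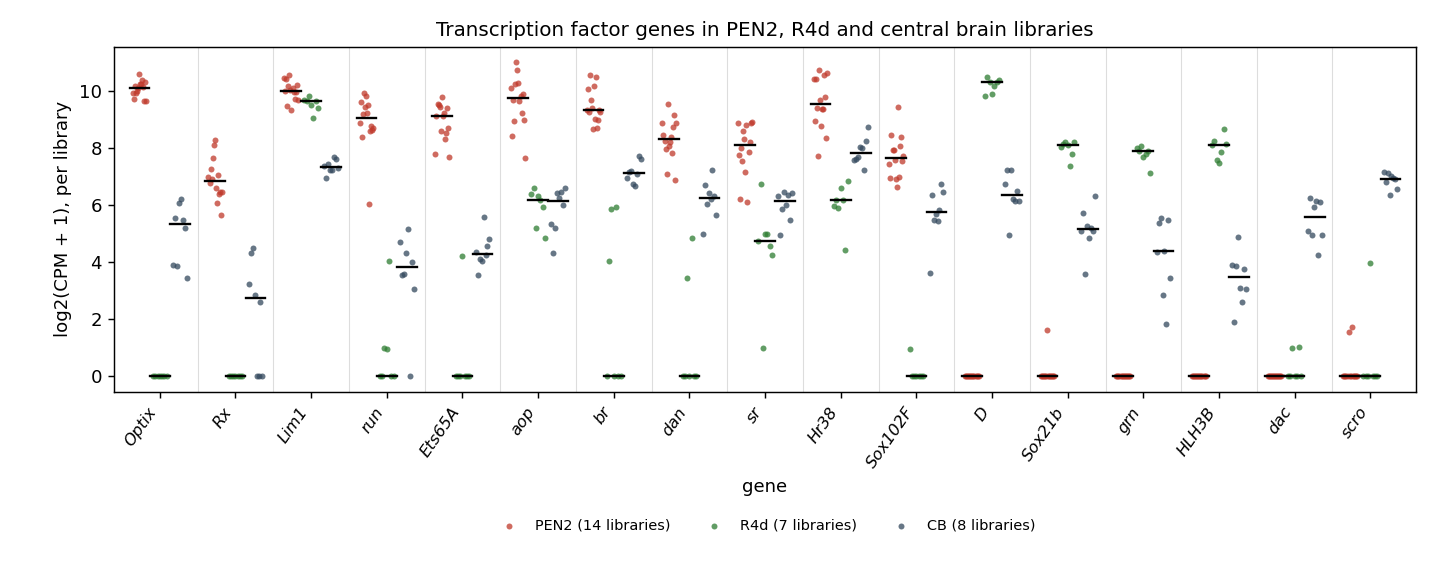
Level of 17 transcription factor genes as log2(CPM + 1) per library in PEN2, R4d and CB, with a bar at each group median. Optix, Rx, Ets65A and Sox102F are high in PEN2 and near 0 in R4d, Lim1 is high in both, and D, Sox21b, grn and HLH3B are high in R4d and at or near 0 in PEN2.

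Of 10 activity-regulated genes tested, 4 rose, none fell and 6 were not called (40.0% higher, against 7.11% of all genes), with a median of 0.37 log2. Hr38, an orphan nuclear receptor, spanned 207 to 1681 CPM (median 750.1) in PEN2, against 150.5 to 428 CPM (median 228) in CB (1.87 ± 0.33 log2, adjusted p = 2.56e-05). The zinc finger gene sr spanned 67.6 to 485 CPM (median 274) in PEN2 and 29.6 to 87.5 CPM (median 70.2) in CB (2.14 ± 0.44 log2, adjusted p = 0.000309), and CG14186 spanned 841 to 1901 CPM (median 1261) in PEN2 and 348 to 559 CPM (median 451) in CB (1.57 ± 0.18 log2, adjusted p = 1.62e-08). Of these 3, the groups did not overlap for CG14186 alone. Against R4d, 5 of the 10 were higher and 2 lower in PEN2, beside 11.8% and 11.7% of all genes. Hr38, sr and CG14186 were among the higher, by 3.68, 3.09 and 3.06 log2 (adjusted p = 9.06e-10, 3.94e-06 and 3.94e-14). Of 16 heat shock genes, 5 were higher and 2 lower (31.2% and 12.5%, against 7.11% and 11.1% of all genes), or 3 and 0 with counts summed per sample entry, and their summed share of gene counts was 0.250% to 0.828% in PEN2, against 0.330% to 0.384% in CB. Hsp27, a small heat shock protein, spanned 89.4 to 559 CPM (median 252) in PEN2, 208 to 584 CPM (median 336) in R4d and 0 to 30.7 CPM (median 5.25) in CB. It was 5.02 ± 0.53 log2 above CB (adjusted p = 1.59e-09) and did not pass between PEN2 and R4d (adjusted p = 0.467). Hsp26 stood at 85.0 to 1633 CPM (median 662) in PEN2, 287 to 712 CPM (median 634) in R4d and 78.0 to 132 CPM (median 104) in CB, while Hsp83 fell, at 261 to 868 CPM (median 465) in PEN2 and 655 to 1046 CPM (median 838) in CB (adjusted p = 0.00331). The part of dissociation in these levels was not tested.

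Neuropeptide precursor genes gave few rises and many falls. Of 28 tested, 3 rose and 23 fell (10.7% and 82.1%, against 7.11% and 11.1% of all genes). Of the 23, 7 had 0 counts and 9 more had 1 to 3 counts in PEN2. These passed the filter through another group and could hardly rise. Dh44 (FBgn0012344), a diuretic hormone related to corticotropin-releasing factor, spanned 1485 to 3473 CPM (median 2095) in PEN2 and 191 to 309 CPM (median 236) in CB (3.29 ± 0.19 log2, adjusted p = 2.09e-16). The precursor gene spab spanned 889.7 to 4037 CPM (median 2100.1) in PEN2 and 650.4 to 1315 CPM (median 884) in CB (1.35 ± 0.30 log2, adjusted p = 0.000771). Dh44 separated the groups in every library, as FMRFa did, while spab overlapped. The myosuppressin gene Ms had 3 counts in all PEN2 libraries, against 1931 to 2573 CPM (median 2259) in CB (ratio of CB over PEN2 4979, 95% counting interval 1703 to 24151), and ITP, the ion transport peptide gene, had 1 count in PEN2, against 810.1 to 1041 CPM (median 938) in CB. The clock neuron peptide gene Pdf had 0 counts in PEN2 and 262 to 454 CPM (median 349) in CB, at least 779.7-fold lower. AstC, which encodes allatostatin C, was not called (adjusted p = 0.243). It passed as a fall with DESeq2 (0.00935) and limma-voom (6.09e-08), and in edgeR without the second PEN2 set (3.66e-07) or PEN2 library 14 (0.000443). It spanned 0 to 1893 CPM (median 1.06) in PEN2, with counts in 7 of 14 libraries, against 467 to 689.9 CPM (median 525) in CB.

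Of 11 genes for peptide processing and dense core release, 3 rose and none fell (27.3% higher, against 7.11% of all genes), with a median of -0.13 log2. The counts depended on the setting. They were 2 higher and 4 lower with limma-voom, 3 and 2 without the second PEN2 set, and 0 and 0 against a change of 1 log2. IA-2, a phosphatase-like protein of dense core vesicles, spanned 7128 to 10666 CPM (median 7906) in PEN2, against 3658 to 4759 CPM (median 4262) in CB (0.91 ± 0.07 log2, adjusted p = 2.59e-12), with no overlap. The gene 7B2, a chaperone of the prohormone convertase amon, rose by 0.40 ± 0.11 log2 with overlapping groups (medians 2490.5 CPM in PEN2 and 1933 CPM in CB, adjusted p = 0.00872). Its call was also lost with counts summed per sample entry. Of 12 peptide receptor genes, 2 rose and 2 fell (16.7% each, against 7.11% and 11.1% of all genes). With only PEN2 and CB fitted, 2 rose and 0 fell. The receptor genes named below kept their direction but lost their calls with counts summed per sample entry. The pyrokinin receptor gene PK2-R1 spanned 4.35 to 90.5 CPM (median 31.8) in PEN2 and 0 to 12.5 CPM (median 5.37) in CB (2.78 ± 0.85 log2, adjusted p = 0.0185), and CNMaR spanned 37.0 to 343 CPM (median 235) in PEN2 and 43.7 to 135 CPM (median 68.3) in CB (1.47 ± 0.30 log2, adjusted p = 0.000239). The tachykinin receptor gene TkR99D had 2 counts in PEN2, against 5.58 to 56.9 CPM (median 30.2) in CB, and the Pdf receptor gene Pdfr spanned 0 to 10.6 CPM (median 2.01) in PEN2 and 8.07 to 64.3 CPM (median 33.6) in CB (adjusted p = 2.09e-06 and 0.000134).

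Phosphoinositide signalling turns membrane lipids into messengers. Of 30 genes tested, 6 rose and 2 fell (20% and 6.67%, against 7.11% and 11.1% of all genes), or 2 and 0 with counts summed per sample entry, with a median of -0.02 log2 over the list. The diacylglycerol kinase gene rdgA (FBgn0261549), whose product turns diacylglycerol into phosphatidic acid, spanned 756 to 2378 CPM (median 1481) in PEN2, against 223 to 404 CPM (median 274) in CB (2.39 ± 0.32 log2, adjusted p = 2.06e-07). Its paralog Dgk spanned 10.9 to 128 CPM (median 51.9) in PEN2 and 2.55 to 29.6 CPM (median 7.78) in CB (2.52 ± 0.70 log2, adjusted p = 0.00734). The phospholipase C gene norpA, which acts upstream of both by releasing diacylglycerol, spanned 465 to 878 CPM (median 742) in PEN2 and 138 to 336 CPM (median 209) in CB (1.69 ± 0.25 log2, adjusted p = 1.58e-06). The groups stood apart for rdgA and norpA and overlapped for Dgk. Lower were Cds, the CDP-diacylglycerol synthase that uses phosphatidic acid, at 63.1 to 504 CPM (median 194) in PEN2 and 606 to 899.8 CPM (median 655) in CB (-1.60 ± 0.24 log2, adjusted p = 2.56e-06), and the lipid transfer gene rdgB (-0.86 ± 0.27 log2, adjusted p = 0.0194), whose call was lost without scaling beyond the library total (0.0511), with only PEN2 and CB fitted (0.0521), without the second PEN2 set (0.0664), with counts summed per sample entry (0.508) and against a change of 1 log2. PEN2 was higher than R4d by 8.68 ± 0.50 log2 in rdgA and 3.32 ± 0.29 log2 in norpA, whose R4d medians were 1.03 and 71.4 CPM (adjusted p = 2.49e-16 and 1.48e-11).

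Of 24 cyclic nucleotide genes, 5 rose and 3 fell (20.8% and 12.5%, against 7.11% and 11.1% of all genes). With counts summed per sample entry the counts were 0 and 1, and dnc, Pde1c, Cngl, Ac76E and Akap200 lost their calls (adjusted p = 0.0560 to 0.202). The cyclic AMP phosphodiesterase gene dnc spanned 325 to 1221 CPM (median 888) in PEN2 and 293 to 453 CPM (median 393.2) in CB (1.21 ± 0.17 log2, adjusted p = 4.95e-07), and the calmodulin-dependent phosphodiesterase gene Pde1c spanned 458 to 1048 CPM (median 708) in PEN2 and 226 to 492 CPM (median 319) in CB (1.09 ± 0.27 log2, adjusted p = 0.0024). Cngl, a channel-like gene gated by cyclic nucleotides, rose by 0.89 ± 0.18 log2 (adjusted p = 0.000208). Groups overlapped for all 3. Of the 3, Pde1c was higher in PEN2 than in R4d, where its median was 6.71 CPM (6.76 ± 0.40 log2, adjusted p = 6.97e-16), while Cngl was lower in PEN2 than in R4d (-0.80 ± 0.17 log2, adjusted p = 0.000455) and dnc did not pass (adjusted p = 0.916). On the falling side, the kinase gene Pka-C3 had 1 count in PEN2, against 13.9 to 81.3 CPM (median 37.8) in CB and 279 to 593 CPM (median 474) in R4d. The adenylyl cyclase gene Ac76E spanned 0 to 30.8 CPM (median 0) in PEN2, with counts in 3 of 14 libraries, and 7.48 to 64.6 CPM (median 26.9) in CB (adjusted p = 0.000784). Akap200, an anchor of protein kinase A, stood at 1.96 to 205 CPM (median 58.7) in PEN2 and 168 to 225 CPM (median 209) in CB (adjusted p = 0.00224).

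Of 18 G protein genes, 3 rose and 2 fell (16.7% and 11.1%, the share that fell being that of all genes), or 0 and 1 with counts summed per sample entry. Dhit, a regulator of G protein signalling, spanned 1009 to 2047 CPM (median 1545) in PEN2, against 655 to 858 CPM (median 749) in CB, without overlap (1.09 ± 0.12 log2, adjusted p = 9.07e-09). The beta subunits diverged: Gbeta13F spanned 1567 to 2943 CPM (median 1889.7) in PEN2 and 1175 to 1709 CPM (median 1384) in CB (0.52 ± 0.11 log2, adjusted p = 0.000252), Gbeta5 spanned 117 to 374 CPM (median 233) in PEN2 and 344 to 690.5 CPM (median 441) in CB (-0.97 ± 0.18 log2, adjusted p = 4.49e-05), and the visual subunit Gbeta76C had 0 counts in PEN2, against 29.6 to 117 CPM (median 61.1) in CB. The gamma subunit gene Ggamma30A was high in both groups, at 5900.3 to 11093 CPM (median 7547) in PEN2 and 6192 to 9575 CPM (median 7316) in CB, without a call (adjusted p = 0.8287), while R4d held 207 to 483 CPM (median 277), and PEN2 was 4.67 ± 0.17 log2 higher than R4d (adjusted p = 3.67e-22). Of 21 calcium genes, 3 rose and 4 fell (14.3% and 19.0%, against 7.11% and 11.1% of all genes), or 0 and 2 with counts summed per sample entry. Calmodulin, from Cam, had medians of 8875 CPM in PEN2 and 6595 CPM in CB (0.32 ± 0.08 log2, adjusted p = 0.00212), a call lost without the first PEN2 set (adjusted p = 0.203). The buffer gene Cbp53E stood at 108 to 537 CPM (median 291) in PEN2, below 979 to 1321 CPM (median 1162) in CB, with no overlap (-2.003 ± 0.22 log2, adjusted p = 5.71e-09), and the neurocalcin gene Nca at 316 to 922 CPM (median 587) in PEN2 and 895 to 1305 CPM (median 1085) in CB (-0.85 ± 0.14 log2, adjusted p = 1.29e-05).

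The receptor kinase and developmental lists hold ligands, receptors and the proteins they act through. The Alk ligand gene jeb (FBgn0086677) spanned 2735 to 3980.1 CPM (median 3181) in PEN2, against 578 to 789.8 CPM (median 625) in CB (2.32 ± 0.10 log2, adjusted p = 3.96e-20), and the groups did not overlap. The gene vn, which encodes a neuregulin-like ligand of Egfr, spanned 21.03 to 257 CPM (median 63.5) in PEN2 and 0 to 14.95 CPM (median 3.12) in CB (4.28 ± 0.85 log2, adjusted p = 0.000192), without overlap. With aop, these made 3 of the 4 rises among 31 tested genes of receptor kinase and MAP kinase signalling, where 2 fell (12.9% and 6.45%, against 7.11% and 11.1% of all genes). One of these, the translation inhibitor gene Thor, had 0 counts in PEN2 and 2.55 to 79.7 CPM (median 35.2) in CB. In the list of developmental ligands and receptors, 3 of 30 rose and 5 fell (10.0% and 16.7%, near the 7.11% and 11.1% of all genes), or 1 and 3 with counts summed per sample entry. Wnt4 spanned 172 to 774 CPM (median 339) in PEN2 and 4.98 to 45.8 CPM (median 11.99) in CB, apart in every library (4.21 ± 0.41 log2, adjusted p = 1.72e-09), and the Wnt receptor gene fz spanned 18.9 to 237 CPM (median 145) in PEN2 and 2.49 to 59.4 CPM (median 30.9) in CB, with overlap (2.04 ± 0.46 log2, adjusted p = 0.000907). The receptor gene N had 4 counts in PEN2 libraries together, against 32.1 to 73.6 CPM (median 53.3) in CB, and the TGF-beta family ligand gene myo had 0 counts, against 62.4 to 137 CPM (median 89.1) in CB. Wnt4 had 0 counts in R4d and was at least 825-fold higher in PEN2 (adjusted p = 9.22e-14). The median of jeb in R4d was 429.7 CPM, and PEN2 was higher by 2.90 ± 0.11 log2 (adjusted p = 5.03e-22). Of 32 further protein kinases 4 rose and 1 fell (12.5% and 3.12%, against 7.11% and 11.1% of all genes), or 0 and 0 with counts summed per sample entry. Of 31 phosphatases 3 rose and 1 fell (9.68% and 3.23%, the rises near the 7.11% of all genes), or 1 and 0 when summed.

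**Figure D4:**
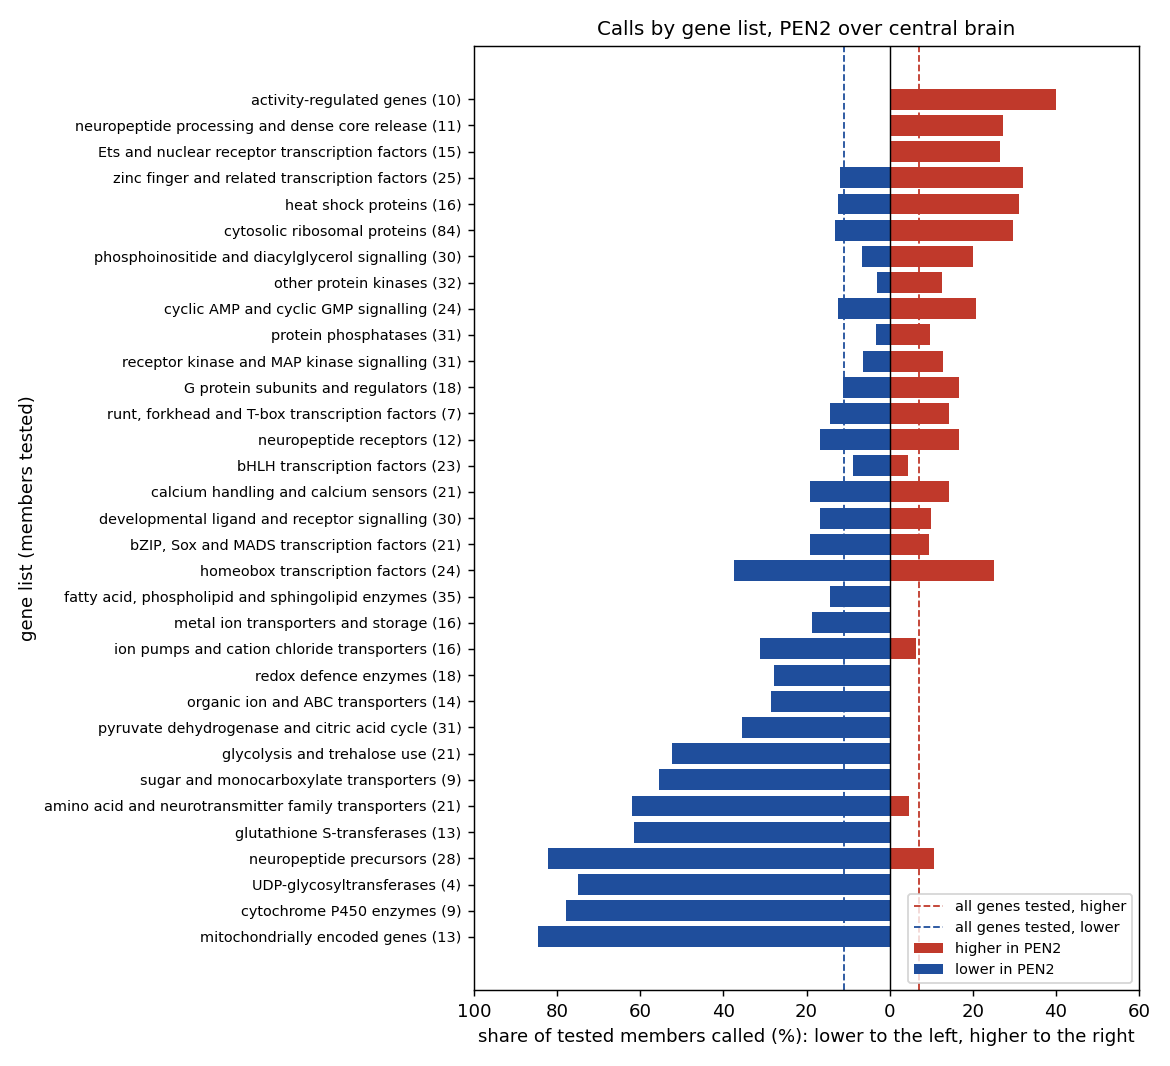
Share of each gene list that was called higher (right) or lower (left) in PEN2 than in CB, with the number of tested members in brackets and dashed lines at the shares over all genes tested (7.11% higher, 11.1% lower). Lists of metabolic enzymes, detoxification enzymes and transporters extend to the left only or nearly so, while most lists of transcription factors and signalling genes extend to both sides.

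Enzymes of metabolism fell or were not called, and none rose. Over 7 lists, 130 enzyme genes were tested and 50 were lower in PEN2 (38.5%, against 11.1% of all genes), with a median of -0.78 log2, and 18 of the 50 belong to the detoxification lists described below. The glial and fat body marker sums given above fell with them (174 to 657 CPM in PEN2 and 8106 to 9326 CPM in CB for glia), and their part was not tested. Of 21 genes of glycolysis and trehalose use, 11 fell (52.4%), or 4 with counts summed per sample entry and 4 against a change of 1 log2. The trehalase gene Treh, which splits the blood sugar of insects, spanned 0 to 65.2 CPM (median 16.8) in PEN2 and 183 to 284 CPM (median 217) in CB (-3.30 ± 0.53 log2, adjusted p = 7.09e-06). The phosphoglycerate kinase gene Pgk spanned 25.8 to 265 CPM (median 135) in PEN2 and 393.8 to 603 CPM (median 460.4) in CB (-1.84 ± 0.27 log2, adjusted p = 1.29e-06). Both lay below CB in every library. The transaldolase gene Taldo had counts in 4 of 14 PEN2 libraries, all of the first set, at up to 50.5 CPM, against 39.6 to 94.7 CPM (median 54.5) in CB (adjusted p = 0.0107).

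Of 31 genes of pyruvate dehydrogenase and the citric acid cycle, 11 fell (35.5%, against 11.1% of all genes). With counts summed per sample entry 1 fell, and against a change of 1 log2 2 fell. The aspartate transaminase gene Got1 spanned 0 to 142 CPM (median 48.8) in PEN2 and 262 to 518 CPM (median 366) in CB (-2.88 ± 0.44 log2, adjusted p = 2.93e-06), and muc, a subunit gene of pyruvate dehydrogenase, spanned 2.13 to 310.3 CPM (median 111) in PEN2 and 321 to 538 CPM (median 418) in CB (-1.79 ± 0.34 log2, adjusted p = 7.69e-05). Gdh, for glutamate dehydrogenase, was not called, at medians of 490.0 CPM in PEN2 and 387.5 CPM in CB (adjusted p = 0.142), and passed as higher without the first PEN2 set (0.00470), without PEN2 library 7 (0.0484) and without scaling beyond the library total (0.0461). Without scaling beyond the library total, 1 gene of each of these 2 lists rose and 10 and 7 fell, and without the first PEN2 set 2 genes of the second list rose. Against R4d, 5 of the 21 and 17 of the 31 were lower in PEN2, beside 11.7% of all genes. Among them were Gdh (-0.98 ± 0.18 log2, adjusted p = 7.07e-05) and muc (adjusted p = 0.011). Treh, Pgk and Got1 gave no call against R4d (adjusted p = 0.226, 0.369 and 0.451).

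Of 13 genes of the mitochondrial genome, 11 were lower and none higher (84.6% lower, against 11.1% of all genes). The share of all gene counts from it was 4.23% to 5.90% in PEN2 and 2.62% to 4.19% in R4d, against 7.79% to 10.3% in CB. The ATP synthase subunit gene mt:ATPase6 spanned 866 to 2552 CPM (median 1385) in PEN2 and 9785 to 12779.5 CPM (median 11965) in CB (-2.96 ± 0.13 log2, adjusted p = 1.12e-19), and mt:ND5, of complex I, spanned 470.2 to 1852 CPM (median 980.3) in PEN2 and 5117 to 7057 CPM (median 6347) in CB (-2.54 ± 0.19 log2, adjusted p = 2.17e-13). The large mitochondrial ribosomal RNA, mt:lrRNA, was not called (0.00 ± 0.09 log2, adjusted p = 0.995), at medians of 32773 CPM in PEN2 and 32810.0 CPM in CB. The sign of that value turned under several alternatives. R4d medians of mt:ATPase6 and mt:ND5 were 2748 and 1505 CPM, also below the CB range. PEN2 was lower than R4d in mt:ATPase6 (-0.86 ± 0.13 log2, adjusted p = 2.79e-06) and gave no call in mt:ND5 (adjusted p = 0.0517). Of the 13 genes, 4 were lower and 1 higher in PEN2 than in R4d, beside 11.7% and 11.8% of all genes.

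Of 35 lipid enzymes, 5 were lower and none higher (14.3% lower, near the 11.1% of all genes). AcCoAS, the acetyl-CoA synthetase gene, stood at 17.4 to 243 CPM (median 174) in PEN2 and 302 to 516 CPM (median 427) in CB (-1.41 ± 0.25 log2, adjusted p = 3.08e-05). It gave no call against R4d (adjusted p = 0.390). The ceramidase gene CDase had 0 counts in PEN2 and in R4d and 87.5 to 179 CPM (median 116) in CB, at least 274-fold lower in PEN2. Detoxification enzymes modify foreign and waste compounds. Of 26 tested cytochrome P450, glutathione S-transferase and UDP-glycosyltransferase genes, 18 fell and none rose (69.2% lower, against 11.1% of all genes). Of 86, 35 and 35 genes of these families, 9, 13 and 4 could be tested. Among the falls, 5 P450, 3 transferase and 1 glycosyltransferase genes had 0 counts in PEN2, and 3 transferase and 2 glycosyltransferase genes had 1 to 3. These passed the filter through another group and could hardly rise, so the absence of rises among them is no result. The P450 genes Cyp28d1 and Cyp4g15 had 0 counts in PEN2, against 77.3 to 193 CPM (median 150.0) and 54.8 to 180.3 CPM (median 112) in CB, at least 299-fold and 255-fold lower, and GstE2 had 0 counts, against 206 to 431 CPM (median 357) in CB, at least 743-fold lower. In the bulk libraries described below, GstE2 stood at 0 and 45.5 FPKM in PEN2, against 58.4 and 56.6 FPKM in whole brain RNA. Cyp28d1 and Cyp4g15 were at no more than 0.01 FPKM in bulk PEN2. GstD1 had 2 counts in PEN2, 66.2 to 153 CPM (median 146) in R4d and 117 to 366 CPM (median 204) in CB, and PEN2 was lower than R4d (adjusted p = 6.89e-16). Cyp28d1, Cyp4g15 and GstE2, in contrast, had 0 counts in R4d as well. Of the 26 genes, 4 were lower and 2 higher in PEN2 than in R4d, beside 11.7% and 11.8% of all genes. Ugt35B1 had 1 count in PEN2 and a median of 0 CPM in R4d, against 257 to 412 CPM (median 301) in CB. Cyp6u1 was measured in all 14 PEN2 libraries and was not called (21.5 to 300.2 CPM, median 106, in PEN2, 38.3 to 133 CPM, median 88.2, in CB, adjusted p = 0.47). Of 18 genes of redox defence 5 fell (27.8%, against 11.1% of all genes). Among them was the extracellular superoxide dismutase gene Sod3, with 0 counts in PEN2 and in R4d and 165 to 253 CPM (median 209.5) in CB. The cytosolic Sod1 did not pass (262 to 1003 CPM, median 489.8, in PEN2, 561 to 786 CPM, median 715, in CB, adjusted p = 0.231), but passed as lower with limma-voom (0.0198).

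**Figure D5:**
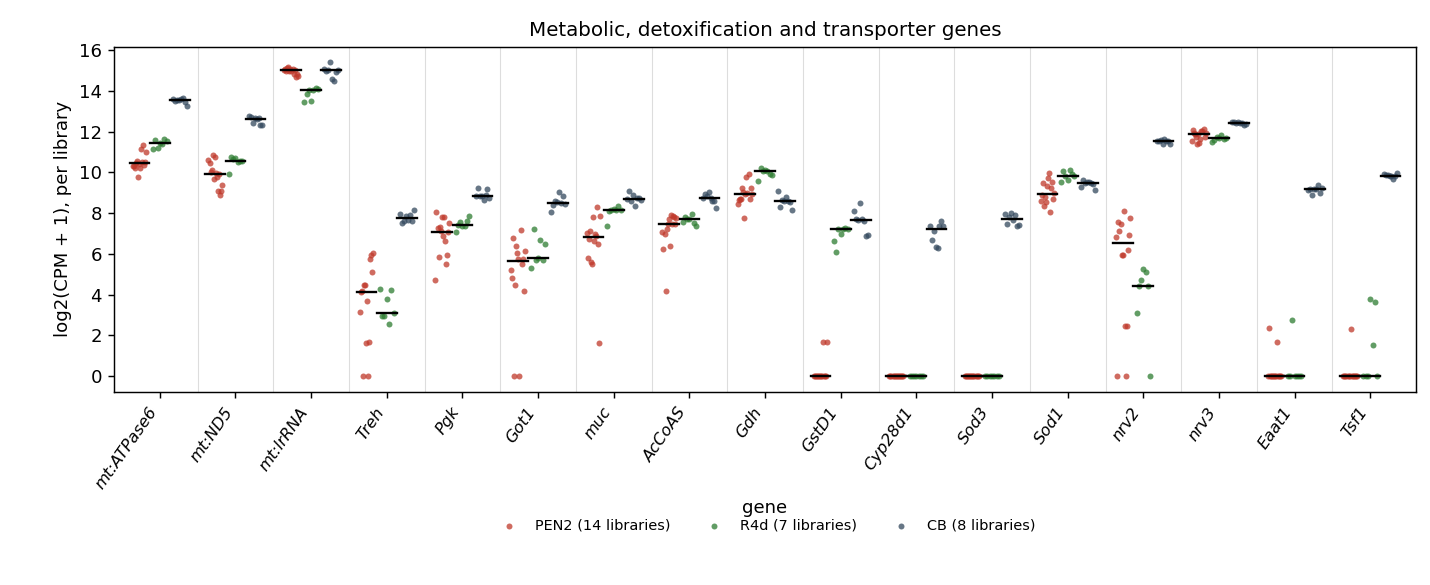
Level of 17 genes of mitochondria, metabolism, detoxification and transport as log2(CPM + 1) per library in PEN2, R4d and CB, with a bar at each group median. Treh, Pgk, Got1 and mt:ATPase6 lie below CB in every PEN2 library, and mt:lrRNA, Gdh and Sod1 overlap between PEN2 and CB. GstD1 is present in R4d and near 0 in PEN2, while Cyp28d1 and Sod3 are at 0 in both.

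Over 5 lists of transporters, 76 genes were tested, 30 fell and 2 rose (39.5% and 2.63%, against 11.1% and 7.11% of all genes), with a median of -0.93 log2. Among pumps, the beta subunit genes of the sodium pump were lower to different degrees. The subunit gene nrv2, also listed as a glial marker, spanned 0 to 277 CPM (median 91.5) in PEN2, against 2699 to 3212 CPM (median 2964) in CB (-4.84 ± 0.52 log2, adjusted p = 2.66e-09), whereas nrv3 spanned 2695 to 4409 CPM (median 3744) in PEN2 and 5081 to 5757 CPM (median 5473) in CB (-0.60 ± 0.08 log2, adjusted p = 3.62e-07). Neither overlapped with CB. The 2 rises were the anion exchanger gene Ae2 (0.76 ± 0.25 log2, adjusted p = 0.0293) and CG12531, of the amino acid list (0.85 ± 0.26 log2, adjusted p = 0.0161), and both calls were lost without the first PEN2 set (adjusted p = 0.327 and 0.0860). The Ae2 call was also lost without any of PEN2 libraries 2, 6 and 8 or CB libraries 1, 2, 4, 5 and 7 (0.0501 to 0.0870).

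Of 9 sugar and monocarboxylate transporters 5 fell, and of 21 genes of amino acid and transmitter transport 13 fell (55.6% and 61.9%, against 11.1% of all genes). The trehalose transporter gene Tret1-1 had 0 counts in PEN2, against 21.9 to 66.8 CPM (median 39.1) in CB, and was at least 88.9-fold lower, and CG9657 had 1 count, against 147 to 277 CPM (median 211) in CB. The glial uptake genes Eaat1 (glutamate) and Gat (GABA) had 3 and 4 counts in all PEN2 libraries together, against 466 to 655 CPM (median 582) and 413 to 737 CPM (median 551) in CB. CG7888, of the amino acid list, had 1 count, against 281 to 477 CPM (median 379) in CB, and the vesicular monoamine transporter gene Vmat 2 counts, against 906 to 1348 CPM (median 1040.4) in CB. The amino acid transporter heavy chain gene CD98hc, in contrast, was not called (223 to 602 CPM, median 330.4, in PEN2, 361 to 598 CPM, median 455, in CB, adjusted p = 0.0991). It passed as lower without PEN2 library 3 (0.0237) and with limma-voom (0.0265). Of 16 metal genes 3 fell (18.75%, against 11.1% of all genes). They included Tsf1 for transferrin (2 counts in PEN2, 819 to 1011 CPM, median 916, in CB) and MtnA for a metallothionein (1 count in PEN2, 74.2 to 117 CPM, median 91.8, in CB). Of 14 organic ion and ABC transporters 4 fell (28.6%). They included Orct, for organic cations, at 0 counts in PEN2 and 17.4 to 90.6 CPM (median 45.2) in CB, and CG3168 at 3 counts in PEN2 and 128 to 299 CPM (median 202) in CB. The transporter lists share genes with the marker lists, among them nrv2, Tret1-1, Eaat1, Gat and Vmat, so part of these falls is that of the markers themselves. The glial, photoreceptor and fat body marker sums given above were lower as well, and the part of those cells in the transporter falls was not tested.

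Among the largest falls, CG15209, CG12239 and CG16826 belong to none of the gene lists. Of the others given here, Rh2 and Arr2 are in the photoreceptor list and lncRNA:CR44832 is in the list of long noncoding RNAs. CG15209 (FBgn0030237) had 1 count in PEN2, against 1570.3 to 2479 CPM (median 2038) in CB (ratio of CB over PEN2 13228, 95% counting interval 2373 to 522547), and CG12239 2 counts, against 1186 to 1917 CPM (median 1591) in CB. CG16826 had 0 counts in PEN2 and 764 to 1127 CPM (median 1009) in CB, at least 2198-fold lower. In the bulk libraries described below, however, CG16826 was at 0 and 0.05 FPKM in whole brain RNA and at 0 and 0 FPKM in PEN2. Its CB level thus had no counterpart in whole brain RNA, and the reason was not tested. The long noncoding RNA lncRNA:CR44832 had 3 counts in PEN2 and 1353 to 2072 CPM (median 1840.4) in CB. Rh2, the opsin of the ocelli, had 1 count in PEN2, against 1447 to 1949 CPM (median 1811) in CB, and the arrestin gene Arr2 0 counts, against 606 to 1053 CPM (median 846) in CB. Of the remaining lists, 6 of 8 pan-neuronal genes rose and none fell (75% higher, against 7.11% of all genes). Among the rises were elav, an RNA-binding protein of neurons (365 to 997.5 CPM, median 691, in PEN2, 213 to 411 CPM, median 268, in CB, adjusted p = 1.78e-06), and brp, of the active zone (292 to 856 CPM, median 467, in PEN2, 144 to 277 CPM, median 199, in CB, adjusted p = 7.51e-07). The vesicle calcium sensor gene Syt1 did not pass (277 to 751 CPM, median 411, in PEN2, 452 to 698 CPM, median 567, in CB, adjusted p = 0.2), but passed as lower without the second PEN2 set (0.0383) and with limma-voom (0.0495). With counts summed per sample entry, or against a change of 1 log2, no pan-neuronal gene was called in either direction.

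Of the genes higher in PEN2 than in CB, 172 were also higher than in R4d, 68 were lower and 155 gave no call. Of the 614 genes lower than in CB, 185 were lower than in R4d, 74 were higher and 355 gave no call. PEN2 libraries enter both comparisons, so these counts are not independent of each other. Over 8 lists of signalling genes, 52 of 213 were higher and 22 lower in PEN2 than in R4d, beside 11.8% and 11.7% of all genes. The 22 lower genes were near that share. Relative to CB, 31 were higher and 20 lower (14.6% and 9.39%, against 7.11% and 11.1% of all genes), the falls again near the share of all genes. Of the 130 enzyme genes, 8 were higher and 34 lower than in R4d, against 0 and 50 relative to CB (0% and 38.5%).

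The 2 PEN2 sets gave the same direction for 1007 of the 1009 genes called. Those genes were called from both sets pooled, and each set was compared with the same CB libraries. The shared direction was therefore largely set in advance and is not a replication. Compared with each other, 199 of 5789 genes differed between the sets (3.44%, with 832 at an unadjusted p under 0.05), and 56 of the 1009 genes were among them. Taken alone, the first set gave 1087 genes and the second 866 genes that differed from CB. Ribosomal protein genes depended on the set: of 84 tested 25 rose and 11 fell, with 7 and 19 without the first set and 38 and 9 without the second.

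Bulk libraries of the same driver line, 993 and 1095 sorted PEN2 cells, were set beside 2 libraries of 5 ng whole brain RNA (WB, optic lobes included) in FPKM, without a test. Of the genes higher in low-cell PEN2, 77 (19.5%) lay above both WB libraries in both bulk PEN2 libraries, against 239 of all 5553 (4.30%), while 205 (51.9%) lay below both. Of the 614 lower genes, 531 (86.5%) lay below, against 3920 of all (70.6%). With the FPKM scaled by TMM, a step added after the data were seen, these shares became 57.7% above and 13.7% below for the higher genes, against 19.6% and 44.0% of all, and 66.9% below for the lower genes. Optix stood at 81.5 and 64.6 FPKM in bulk PEN2 against 8.84 and 7.60 FPKM in WB, Wnt4 at 30.9 and 30.4 FPKM in bulk PEN2 against 8.30 and 8.70 FPKM in WB and haf at 68.2 and 137 FPKM in bulk PEN2 against 9.05 and 7.57 FPKM in WB. FMRFa stood at 48.2 and 5.39 FPKM in bulk PEN2 against 4.60 and 4.93 FPKM in WB, and ChAT, at 12.1 and 21.5 FPKM in bulk PEN2 against 43.4 and 44.4 FPKM in WB, lay below WB on this scale. Some genes with 0 or 1 low-cell count in PEN2 were present in 1 bulk PEN2 library. D stood at 15.8 and 0 FPKM in bulk PEN2 against 20.3 and 18.8 FPKM in WB. Sox21b stood at 17.3 and 0 FPKM against 11 and 11.9 FPKM, and CG15209 at 23.2 and 0 FPKM against 60.25 and 77.96 FPKM. Others, among them Pdf, ITP, Sod3 and Arr2, were at 0 FPKM in both bulk PEN2 libraries.

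In the authors' deposited table of this comparison 2253 genes had an FDR under 0.05, of which 400 were higher and 1853 lower in PEN2. Of the genes called here, 346 of the higher and 471 of the 614 lower were called in the same direction in the authors' deposited table, and 0 in the other direction. For jeb the authors' deposited table gave 2.36 log2 (sign turned to PEN2 over CB), and for rdgA it gave 2.43 log2.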

How the data were processed

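The authors' deposited counts per gene were used for the low-cell libraries, where the submitters' processing notes name STARsolo and edgeR without giving their roles. Versions and the genome build are not given in the sources used here, nor whether molecular identifiers or strand were used, so overlapping and antisense genes cannot be told apart. The authors' deposited bulk values were read as FPKM from their range. The authors' deposited table gives log2 changes as CB over PEN2, with deposited p-values, and the sign was turned here. 10 bulk columns were not used.

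All 29 low-cell libraries entered 1 edgeR 4.0.16 quasi-likelihood fit (R 4.3.3, TMM, filterByExpr by group with a minimum count of 10), with Benjamini-Hochberg adjustment at 0.05. CPM use TMM-scaled library sizes. DESeq2 1.42.0, limma 3.58.1, other scalings, filters and left-out libraries were alternatives. Columns were tied to the 2 PEN2 entries by their order of number. Bounds use 3 counts over a group, and 95% exact binomial intervals cover counting error only.

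Members and lists were chosen with earlier results of these data known. The text draws on genes named by rule: label and cell type markers, the 15 largest changes per direction with a mean of at least 20 CPM in the higher group and its median above every library of the other group, and up to 3 per list and direction with at least 10 CPM, plus the most abundant uncalled member. Those printed were picked from these after their values were seen. On simulated counts for 5553 genes in the PEN2 and CB design, 19.1% of genes changed by 1 log2, 48.5% by 2 and 69.7% by 3 were recovered. Of 5353 unchanged genes, 6 were called. The simulated libraries were drawn independently, with the same spread in all groups and no difference between PEN2 sets. These shares therefore leave out set differences and the wider spread across PEN2 libraries.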

Additional observations from a re-analysis of the deposited data

Results flagged for a closer look

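Between the first and the second PEN2 set, 5 of the genes named above differed. The log2 difference, first minus second set, was -4.76 for AstC (means 14.5 and 411 CPM, adjusted p = 0.00294), and 5.96 for Taldo (means 13.3 and 0 CPM, adjusted p = 0.0156), a fitted value that depends on the prior count. It was 0.98 for mt:ND5, -0.55 for mt:ATPase6 and -0.55 for Nca (adjusted p = 0.000776, 0.01 and 0.0291). AstC was thus higher in the second set and Taldo in the first.

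In CB, 1 of 8 libraries lay apart from the other 7 for 7 of the 114 genes examined, where chance alone sets about 1 in 20 groups apart. These were y in CB library 3 (2.71 CPM, where the other 7 were at 0), Ets65A in library 5 (47.4 CPM), Taldo in library 5 (94.7 CPM), HLH3B in library 4 (28.1 CPM), Gbeta5 in library 4 (690.5 CPM), Dgk in library 2 (29.6 CPM) and elav in library 7 (411 CPM). Each was the highest of its group.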

How the results depend on the processing

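Against the 1009 genes called (614 of them lower), upper-quartile scaling, no scaling beyond the library total, DESeq2, a fit of PEN2 and CB alone, library sizes without ribosomal and mitochondrial genes, and leaving out either PEN2 set gave 840 to 1239 calls, 462 to 739 of them lower. Without scaling the median over all genes shifted by 0.12 log2. Leaving out 1 library at a time gave 858 to 1045 calls, with 333 to 403 higher and 512 to 647 lower. With weights per group in limma-voom 2430 genes were called, 2031 of them lower, and the median shifted by -0.76 log2. Without a filter (11628 genes tested) 2377 were called, 1936 lower, and 2226 against R4d in place of 1300. A test against a change of 1 log2 called 414 genes (96 higher, 318 lower). Counts summed per sample entry, with 1 residual degree of freedom, called 304 (85 higher, 219 lower), all among the 1009. Of 114 genes named here, 34 lost their call when summed and 25 against a change of 1 log2, all in the same direction. Of genes called in all libraries, 2 changed sign without the first set, and none under the other alternatives.

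For mt:lrRNA, near 0 throughout, the log2 change was -0.0207 with DESeq2, -0.0318 without a filter, -0.00686 with the reduced library sizes and -0.124 to 0.0789 when a library or a PEN2 set was left out. For Ggamma30A it was -0.0038 without PEN2 library 10, and up to 0.105 with another left out. No paired analysis was possible because PEN2 has 2 numbered entries and CB only 1. The spread across PEN2 libraries, wider than across CB, limits calls of small changes.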
